A study of Mus musculus with 18 samples.

Results

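The 69 replication-dependent histone genes of the mouse were followed in small intestinal crypts after inducible deletion of Prmt1. They are the rows of the deposited count table whose symbol begins with Hist1h to Hist4h, without the entries marked -ps, 69 of 55335 genes in all. The rule uses the names alone and does not test whether each gene is replication-dependent. This gene family was chosen with earlier results of these data known. They encode the linker histone H1 (6 genes), H2A (20), H2B (18), H3 (12) and H4 (13). In the annotation of the table (GENCODE M23, mouse build mm10), 56 lie on chromosome 13, 10 on chromosome 3, 2 on chromosome 11 and 1 on chromosome 6.

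Replication-dependent histone genes are transcribed as DNA is copied, so that new DNA can be packed into nucleosomes. Their mRNAs are not polyadenylated and end in a conserved stem-loop, which is bound by the stem-loop binding protein SLBP, while the U7 snRNP directs the cut that forms the end. In the crypt, cells in S phase are the stem cells at the base and the transit amplifying cells above them. The libraries were made from total RNA depleted of ribosomal RNA, so mRNAs without a poly(A) tail were also measured.

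The study used 18 mice, 3 in each of 6 groups, and each library came from 1 mouse. Both sexes were used, and the study states that KO and control mice were matched by age and sex. All were 8 to 12 weeks old at induction, carried Prmt1 with LoxP sites on both alleles (PRMT1 fl/fl) and received tamoxifen, 2 mg a day for up to 5 days. The KO mice also carried Vil-CreERT2, a Cre activated by tamoxifen under the villin promoter, which acts in the intestinal epithelium but not in other cells of the preparation. The control littermates, called WT, had no Cre. Crypts were released with EDTA at day 2, after 2 injections, and at days 7 and 14 after the first injection. Effects of Cre with tamoxifen and of the loss of Prmt1 cannot be told apart, since no group had Cre with an intact Prmt1. In bulk crypt RNA, fewer cells in S phase and less histone mRNA in each such cell cannot be told apart either. The authors had earlier reported that small intestinal crypts of this knockout were longer and that cell proliferation was increased. Cell division itself was not measured in these libraries.

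Total counts ranged from 12844642 to 31493484 per library, and the 69 genes took 0.129% to 0.534% of them. Prmt1 was at 14.4 ± 1.36 CPM (counts scaled to the size of the library) in KO and 26.6 ± 0.520 in WT at day 2, at 15.8 ± 1.99 and 23.8 ± 1.93 at day 7, and at 15.4 ± 0.639 and 25.3 ± 5.20 at day 14 (SD, n = 3). Every KO library was below every WT library of its day. Prmt1 passed edgeR's quasi-likelihood test at each day (Benjamini-Hochberg adjusted p = 0.0264, 0.00675 and 0.00329). At day 2 the call was lost without any 1 of the 6 libraries (adjusted p = 0.0816 to 0.183), and at day 7 without KO replicate 1 (adjusted p = 0.0655). The summed level of 10 epithelial markers was 5230 to 9573 CPM per library, against 18.2 to 58.0 CPM for 8 T cell markers, 13.4 to 40.6 for 8 B cell markers, 17.3 to 72.8 for 8 myeloid markers and 24.8 to 199 for 10 stromal markers.

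The stem-loop that forms the end of these mRNAs was found in the transcript models of 46 of the 69 genes, as 2 complementary arms of 6 bases around a loop of 4 bases. There were 8 forms, and the 5 shown here belong to genes whose levels are described below. They are printed in the sense of the mRNA as DNA letters, with the stem-loop in capitals and 5 bases on either side.
Hist1h3b: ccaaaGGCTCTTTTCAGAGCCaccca
Hist4h4: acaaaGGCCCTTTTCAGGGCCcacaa
Hist2h4: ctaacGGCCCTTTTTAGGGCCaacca
Hist2h2ac: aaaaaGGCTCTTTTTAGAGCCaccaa
Hist1h1t: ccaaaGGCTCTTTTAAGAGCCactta
They come from GENCODE M21 transcripts (GRCm38) at chr13:23752815-23752840 (plus strand), chr6:136803993-136804018 (minus), chr3:96262934-96262959 (minus), chr3:96220413-96220438 (minus) and chr13:23696520-23696545 (plus). The form shown for Hist1h3b occurred in 26 genes, of H1, H2A, H2B and H3. The form of Hist4h4 occurred in 7 genes, all of them H4, that of Hist1h1t in 6, that of Hist2h4 in 2 and that of Hist2h2ac in 1. The arms lay 21 to 58 bases after the stop codon, with a median of 31. In the other 23 genes, among them Hist2h2be, the model used here did not contain such a stem-loop.

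Promoters from 250 bases before to 50 bases after the start were matched by symbol in RefSeq (GRCm38.p6) for 62 genes, and 4 are shown because their genes represent different classes among those described below. Capitals mark the TATA box (the letters TATAAA), the box CCAAT and the H1 box (AAACACA), all searched on both strands. A box on the other strand is in capitals as its complement.
Hist1h1b: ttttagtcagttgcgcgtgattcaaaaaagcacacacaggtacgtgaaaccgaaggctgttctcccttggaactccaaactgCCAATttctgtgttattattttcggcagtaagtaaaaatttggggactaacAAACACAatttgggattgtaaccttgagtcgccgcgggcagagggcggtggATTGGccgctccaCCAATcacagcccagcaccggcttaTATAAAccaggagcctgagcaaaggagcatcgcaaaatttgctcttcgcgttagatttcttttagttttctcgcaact
Hist2h2ab: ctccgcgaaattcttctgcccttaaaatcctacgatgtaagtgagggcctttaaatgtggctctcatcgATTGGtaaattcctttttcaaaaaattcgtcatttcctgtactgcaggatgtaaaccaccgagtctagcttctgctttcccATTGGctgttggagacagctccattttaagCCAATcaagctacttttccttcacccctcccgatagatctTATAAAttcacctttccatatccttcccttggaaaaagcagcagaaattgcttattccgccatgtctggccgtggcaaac
Hist1h3b: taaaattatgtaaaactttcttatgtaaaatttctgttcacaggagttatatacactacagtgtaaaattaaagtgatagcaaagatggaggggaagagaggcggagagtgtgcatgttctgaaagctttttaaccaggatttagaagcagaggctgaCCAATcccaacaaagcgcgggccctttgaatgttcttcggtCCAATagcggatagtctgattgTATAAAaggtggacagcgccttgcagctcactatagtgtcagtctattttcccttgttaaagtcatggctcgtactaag
Hist1h4h: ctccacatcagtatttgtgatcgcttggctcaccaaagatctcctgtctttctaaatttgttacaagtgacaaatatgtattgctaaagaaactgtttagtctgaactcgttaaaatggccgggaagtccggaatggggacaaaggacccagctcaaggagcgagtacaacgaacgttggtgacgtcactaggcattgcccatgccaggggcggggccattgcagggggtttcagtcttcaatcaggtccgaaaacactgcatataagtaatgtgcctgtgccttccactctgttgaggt
Their windows are chr13:21780576-21780875 (minus strand), chr3:96219635-96219934 (plus), chr13:23752095-23752394 (plus) and chr13:23530794-23531093 (plus). CCAAT was present in every matched promoter of H1 (6), H2A (18), H2B (16) and H3 (10), in 3 of the 12 of H4, and in 37.4% of all 32544 promoters of that table. TATAAA was present in 4 of the 6 H1 promoters, 11 of the 18 of H2A, 8 of the 16 of H2B, 4 of the 10 of H3 and 8 of the 12 of H4, against 13.6% of all. AAACACA was in 5 of the 6 H1 promoters, in 2 of H2A, in 2 of H2B and in 0 of H3 and H4, against 7.2% of all. The octamer ATTTGCAT was in 7 H2A and 6 H2B promoters and in 0 of the other classes, against 1.75% of all. Windows of neighbouring H2A and H2B genes can overlap, as those of Hist1h2ah (chr13:22035594-22035893) and Hist1h2bk (chr13:22035571-22035870) do. The same letters can thus be counted in both classes, and these counts are not of independent sequences. None of these letters occurs in the window of Hist1h4h, which says only that they are not in this window.

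Levels differed widely between the genes. Per kilobase of transcript model, 17 genes averaged at least 100 CPM over the 18 libraries, 53 at least 10 and 61 at least 1. The 10 genes of highest CPM, which is not scaled by length, held 46.6% of the summed CPM of the 69. In the 9 WT libraries the highest per kilobase were the H4 genes Hist1h4h (359 ± 94.4 CPM per kilobase, SD, n = 9) and Hist1h4f (316 ± 82.5) and the H2B gene Hist2h2bb (329 ± 87.3). Their ranges over these libraries overlapped (245 to 540, 212 to 447 and 217 to 498). The histone genes of a library shift together, so these spreads do not compare the 3 genes within a library. All of the exon of Hist2h2bb overlaps other gene models. The order rests on the length of the gene models, which differ in how far they run past the stem-loop. The H4 gene Hist1h4d had 196 CPM over the 18 libraries against 149 for Hist1h4h, with a model of 1138 bases of which 770 follow the stem-loop, against 470 and 46. The highest of the linker histones per kilobase was Hist1h1b (206 ± 40.5; 130.2 CPM, against 219.5, 183 and 177 CPM for Hist1h1e, Hist1h1d and Hist1h1c, whose models run 1153, 4884 and 840 bases past the stem-loop), of H2A Hist1h2ak (182 ± 38.3) and of H3 Hist1h3c (128 ± 27.9), beside Hist1h3e (127 ± 27.6). By class, H4 took a median of 27.2% of the summed histone CPM of a library, H1 25.5%, H2B 22.5%, H3 14.8% and H2A 10.04%. These shares varied little, H4 between 24.7% and 30.3% and H1 between 23.7% and 28.7%. The histones of testis were at or near 0: Hist1h2aa had 0 to 1 counts per library, Hist1h2ba 0 to 2 and Hist1h1t 1 to 15. Hist1h2aa, Hist1h2ba and Hist1h2aj (1 to 9 counts) were too low to be tested, which left 66 genes.

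The summed histone level of KO crypts did not stand apart at day 2 and was lower than WT at day 14, with an overlap of 1 library at day 7. The 3 KO libraries had 4390, 2922 and 5567 CPM at day 2, and the WT libraries 3506, 4413 and 4027. At day 7 the KO libraries had 1811, 2612 and 1287 CPM, and the WT libraries 2599, 3872 and 2900. At day 14 the KO libraries had 2281, 2075 and 2615 CPM, and the WT libraries 3176, 5217 and 3170. The KO libraries of day 2 spanned all WT libraries of that day. At day 7 KO replicate 2 stood just above the lowest WT library and the other two KO libraries were below all WT. At day 14 the groups did not overlap. The KO mean was 1.08 times the WT mean at day 2 (4293 ± 1325 against 3982 ± 455 CPM), 0.609 times at day 7 (1903 ± 668 against 3124 ± 665) and 0.603 times at day 14 (2324 ± 273 against 3854 ± 1180; SD, n = 3). Leaving out any 1 library gave ratios of 0.496 to 0.708 at day 7 and 0.554 to 0.732 at day 14.

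**Figure D1:**
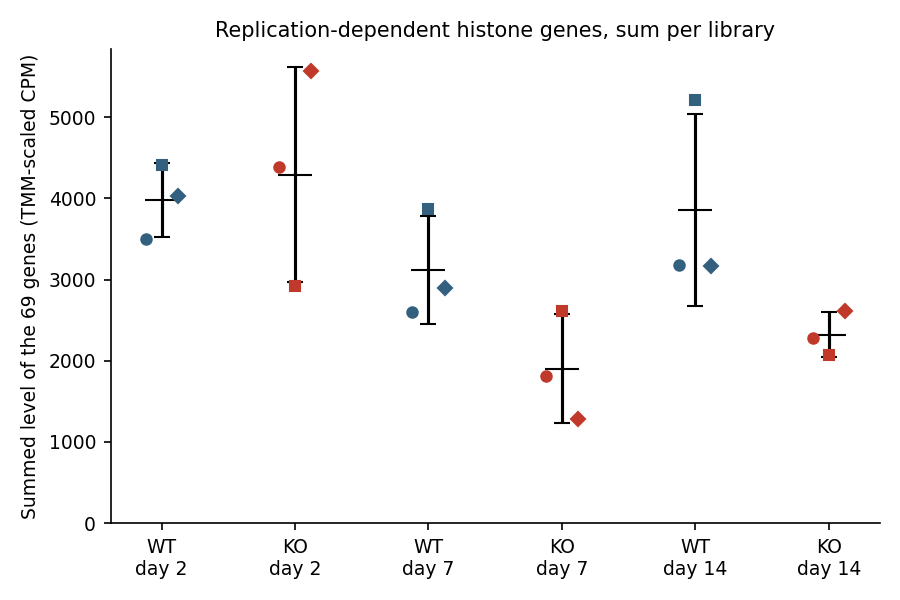
Summed level of the 69 histone genes in each of the 18 libraries, in TMM-scaled CPM (vertical axis, from 0), by genotype and day. Points are libraries and the bars with error bars are the group mean and SD. The KO libraries at day 14 (2075 to 2615 CPM) lie below the WT libraries of that day (3170 to 5217 CPM), while 1 KO library at day 7 (2612 CPM) overlaps WT.

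All 5 classes had a lower mean summed level in KO than in WT at days 7 and 14. At day 7 the KO mean was 0.650 times WT for H1, 0.624 for H2A, 0.657 for H2B, 0.573 for H3 and 0.550 for H4, and the libraries were apart for H3 and H4. At day 14 the ratios were 0.610, 0.595, 0.594, 0.591 and 0.613, with the libraries apart in every class. At day 2 they were 1.09, 1.16, 1.01, 1.07 and 1.10, with overlap in every class.

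The histone genes moved together within a library. In KO day 7 replicates 1, 2 and 3, 65, 50 and 64 of the 66 tested genes were below the WT mean of that day, with median log2 ratios of -0.79, -0.23 and -1.31 (0.1 CPM added to each value). In KO day 14 replicates 1, 2 and 3 the counts were 65, 63 and 64, with medians of -0.77, -0.90 and -0.53. The same held among controls: WT day 14 replicate 2 had 64 of 66 genes above the mean of its group and a median of 0.43, and WT replicates 1 and 3 of that day had 62 below it. At day 2 KO replicate 3 had 64 genes above the WT mean and KO replicate 2 had 55 below it. Most genes of a library thus deviated in the same direction, so they are not independent replicates of the genotype.

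**Figure D2:**
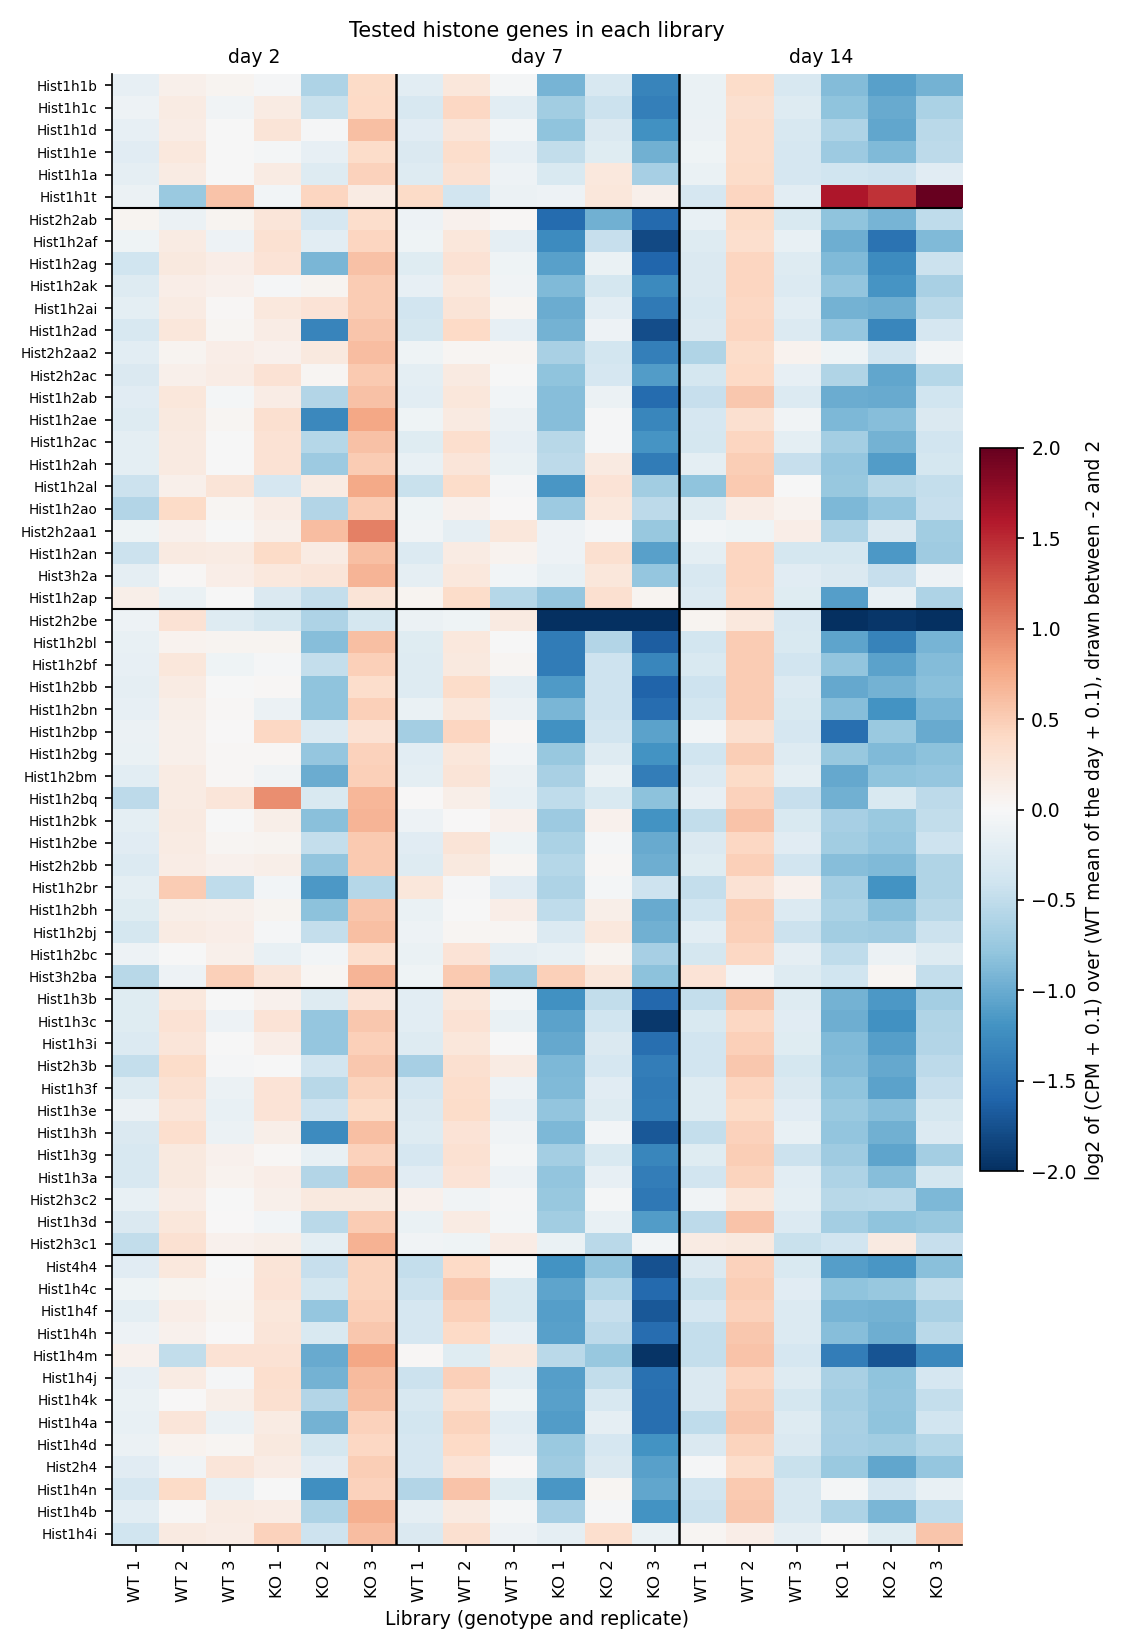
Heat map of the tested histone genes (rows) in the 18 libraries (columns). Colour is log2 of CPM plus 0.1 over the WT mean of the same day plus 0.1, drawn between -2 and 2. The KO libraries at days 7 and 14 are below the WT mean in nearly every row, least so in KO day 7 replicate 2, where 16 of the 66 genes are above it.

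At day 2, 0 of the 66 histone genes passed the test between KO and WT (edgeR's quasi-likelihood test, adjusted p under 0.05), 1 had an unadjusted p under 0.05, and DESeq2 also called 0. Of all 21349 genes tested, 0.0328% were called at that day. The median log2 fold change of the 66 was 0.12, with 57 above 0 (49.1% of all genes), and 0.00 over all genes. Left-out libraries moved that median between -0.12 and 0.36.

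At day 7, 17 of the 66 genes fell in KO crypts and 0 rose, where 10.2% of all genes tested were called lower and 7.11% higher. The median log2 fold change of the 66 was -0.71, with 63 below 0 (48.4% of all genes), beside 0.02 over all genes. In 26 of the 66 all KO libraries were below all WT libraries, as in 17.7% of all genes. The 17 were 3 of 6 H1 genes, 5 of 18 H2A, 4 of 17 H2B, 1 of 12 H3 and 4 of 13 H4, and the class medians were -0.62, -0.67, -0.58, -0.73 and -0.88. The count depended on single libraries. It was 2 without KO replicate 1, 4 without KO replicate 3, 2 without WT replicate 2, 8 without WT replicate 3, 18 without WT replicate 1 and 35 without KO replicate 2. The calls of Hist2h2be and Hist2h2ab held in all 6 of these fits.

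At day 14, 10 of the 66 genes fell, where 4.69% of all genes were called lower. The fit also called Hist1h1t higher, a gene of few counts that entered the test only through its KO day 14 libraries and is described below. The median log2 fold change was -0.75, with 64 below 0 (49.8% of all genes), and 0.00 over all genes. In 46 of the 66 the KO libraries were all below the WT libraries, as in 14.1% of all genes. The genes that fell were 1 H1, 4 H2A, 2 H2B, 1 H3 and 2 H4, and the class medians were -0.71, -0.75, -0.83, -0.76 and -0.67. Of the 10 falling genes, 1 remained called without KO replicate 1 or 2 or WT replicate 2, 2 without KO replicate 3, 7 without WT replicate 1 and 8 without WT replicate 3. DESeq2 called 21 lower. With the replicate number as a block among the libraries of day 14, 6 of the 10 calls remained, and those of Hist2h2ab, Hist2h2ac, Hist1h3b and Hist4h4 were lost. The call of Hist2h2be held in all 6 fits without 1 library. The calls of both days had 8 falling genes in common, 47.1% of those of day 7 and 80.0% of those of day 14. Over all genes, the study with DESeq2 also found most of its falling genes of day 14 at day 7. The overlap thus does not set the histone genes apart. The controls of each day were different mice, and the libraries share 1 model.

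**Figure D3:**
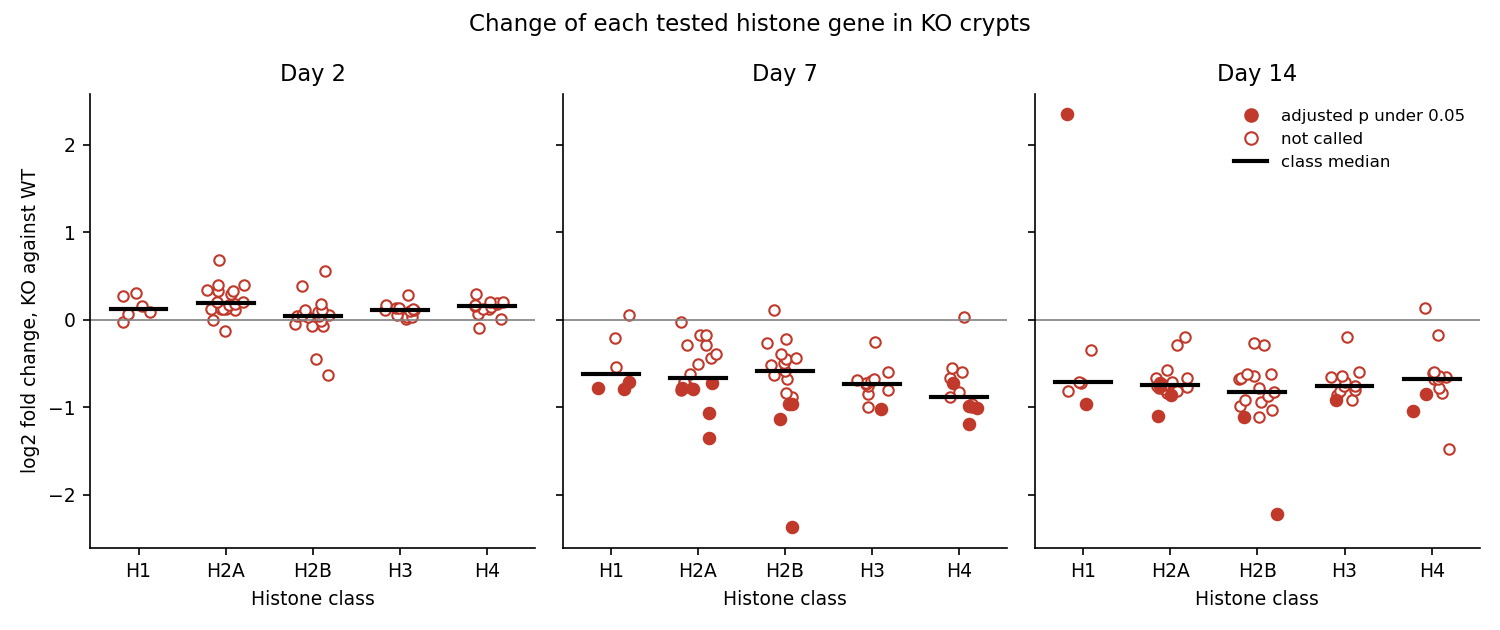
Log2 fold change of KO against WT for each tested histone gene (vertical axis) by class (horizontal axis) at days 2, 7 and 14. Filled points have an adjusted p under 0.05, open points do not, and black bars are class medians. Points centre near 0 at day 2 and near -0.71 and -0.75 at days 7 and 14, with Hist2h2be lowest (-2.37 and -2.22) and Hist1h1t, which entered the test only through its KO day 14 libraries, highest at day 14 (2.35).

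Hist2h2be had the lowest log2 fold change of the 66 genes at both days. It encodes the H2B variant H2BE, known for its expression in olfactory sensory neurons. The gene has 1 exon at chr3:96221119-96223738 (plus strand, mm10), with no 100-base stretch shared with another gene. Its symbol alone placed it in the set, and no stem-loop was found in its model of 2620 bases. Whether this gene is replication-dependent was not tested. Its KO libraries had 4.13, 3.42 and 4.14 CPM at day 2, 0.845, 1.09 and 1.31 at day 7, and 1.05, 1.58 and 1.48 at day 14. Its WT libraries had 4.96, 6.54 and 4.42 CPM at day 2, 5.18, 5.30 and 6.35 at day 7, and 6.65, 7.34 and 5.10 at day 14. The KO libraries were below all WT libraries at each day, and the distance was largest at days 7 and 14. KO day 7 replicate 2, in which 16 of the 66 genes were above the WT mean, lay between the other KO libraries for this gene. The log2 fold change was -2.37 ± 0.235 (SE) at day 7 (edgeR adjusted p = 1.89e-06) and -2.22 ± 0.239 at day 14 (edgeR adjusted p = 1.28e-05). At day 2 it was -0.44 ± 0.214 (edgeR adjusted p = 0.999, unadjusted p = 0.0523). The gene is of low level, with 19 to 186 counts per library. The KO effect at day 7 minus that at day 2 was -1.93 ± 0.316 on the log2 scale (edgeR adjusted p = 0.00174), and that call held without any 1 of the 12 libraries.

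Hist2h2ab and Hist2h2ac, 2 H2A genes, lie just before Hist2h2be in the same cluster, at chr3:96219865-96220308 (plus strand) and chr3:96220361-96220880 (minus strand). The KO libraries of Hist2h2ab had 7.72, 5.13 and 8.41 CPM at day 2, 1.91, 2.91 and 1.88 at day 7 and 3.43, 3.15 and 4.25 at day 14. Its WT libraries had 6.81, 6.005 and 6.80 CPM at day 2, 5.32, 6.07 and 5.83 at day 7 and 5.44, 7.86 and 4.91 at day 14. The groups overlapped at day 2 and were apart at days 7 and 14. The log2 fold change was -1.35 ± 0.233 at day 7 (edgeR adjusted p = 0.000556) and -0.76 ± 0.231 at day 14 (edgeR adjusted p = 0.0492). The call of day 14 was lost without any KO library or WT replicate 1 or 2 (adjusted p up to 0.242), and with the replicate block of day 14 (0.0691). The KO effect at day 7 minus that at day 2 was -1.47 ± 0.320 on the log2 scale (edgeR adjusted p = 0.0129), called without any 1 of the 12 libraries. Hist2h2ac fell by 0.72 on the log2 scale at both days (edgeR adjusted p = 0.0255 and 0.0433). The first call was lost without KO replicate 1 or 3 or WT replicate 2 or 3 (up to 0.124), the second without any KO library or WT replicate 2 or 3 (up to 0.225) and with the replicate block (0.0668). Hist2h2ab shares 59.7% of its 100-base windows with other genes and 68.2% of its exon overlaps the gene model Gm15444, and the counting used no strand, so reads of the 2 cannot be told apart.

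Hist4h4 and Hist2h4 encode H4 outside the large cluster. Hist4h4 (chr6:136801553-136804415, minus strand) had 17.8, 23.6 and 12.1 CPM in KO at day 7 and 29.3, 53.7 and 39.5 in WT. At day 14 it had 21.3, 20.6 and 25.7 CPM in KO and 37.5, 63.6 and 37.3 in WT. Every KO library was below every WT library on both days. The log2 fold changes were -1.19 ± 0.287 (edgeR adjusted p = 0.00908) and -1.04 ± 0.288 (edgeR adjusted p = 0.0345). The first call was lost without KO replicate 1 or WT replicate 2 (adjusted p up to 0.0528) and the second without any KO library or WT replicate 2 (up to 0.161) or with the replicate block (0.0507). Hist2h4 (chr3:96261682-96263311, minus strand) had 23.1, 18.7 and 22.4 CPM in KO and 38.1, 49.4 and 28.2 in WT at day 14, again apart. Its log2 fold change was -0.85 ± 0.233 (edgeR adjusted p = 0.0294, up to 0.147 without any KO library or WT replicate 1 or 2). At day 7 it was -0.66 ± 0.231 with overlap and did not pass (edgeR adjusted p = 0.0570).

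In the chromosome 13 cluster, Hist1h4h was the H4 gene of highest level per kilobase. Hist1h4h had 68.1, 101 and 50.2 CPM in KO and 115, 190 and 129 in WT at day 7, and 96.8, 88.7 and 121 in KO and 126, 254 and 145 in WT at day 14. The KO libraries were below the WT libraries on both days. The log2 fold change was -0.98 ± 0.287 at day 7 (edgeR adjusted p = 0.0245; not called without KO replicate 1 or 3 or WT replicate 2). At day 14 it was -0.78 ± 0.286 and did not pass (edgeR adjusted p = 0.109). Hist1h4f did not pass on either day, at -0.997 ± 0.338 and -0.84 ± 0.337 (edgeR adjusted p = 0.0533 and 0.153). Hist1h4m had the second lowest value at day 14, -1.47 ± 0.434 (edgeR adjusted p = 0.0515), and 88.1% of its windows are shared with other H4 genes. Hist1h4i was at 8.66 ± 1.84 CPM in KO and 8.51 ± 1.93 in WT at day 7 and at 10.3 ± 3.06 and 9.30 ± 1.01 at day 14, with overlap on both days. Hist1h4n was at 18.01 ± 1.78 CPM in KO and 20.2 ± 7.68 in WT at day 14 (log2 fold change -0.18 ± 0.436).

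Among the H3 genes, Hist1h3b (chr13:23752267-23752886, plus strand) was the one called. It had 21.3, 34.99 and 16.5 CPM in KO and 42.7, 57.9 and 47.3 in WT at day 7, and 31.2, 27.1 and 37.3 in KO and 42.8, 86.7 and 50.3 in WT at day 14. The groups were apart on both days. The log2 fold changes were -1.02 ± 0.271 (edgeR adjusted p = 0.0156) and -0.92 ± 0.271 (edgeR adjusted p = 0.0464). The first call was lost without KO replicate 1 or 3 or WT replicate 2 (up to 0.1002), the second without any KO library or WT replicate 2 or 3 (up to 0.230) or with the replicate block (0.0676). The H3 genes of highest level per kilobase, Hist1h3e and Hist1h3c, did not pass at day 7 (-0.74 ± 0.275 and -0.999 ± 0.364) or day 14 (-0.64 ± 0.274 and -0.91 ± 0.364).

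**Figure D4:**
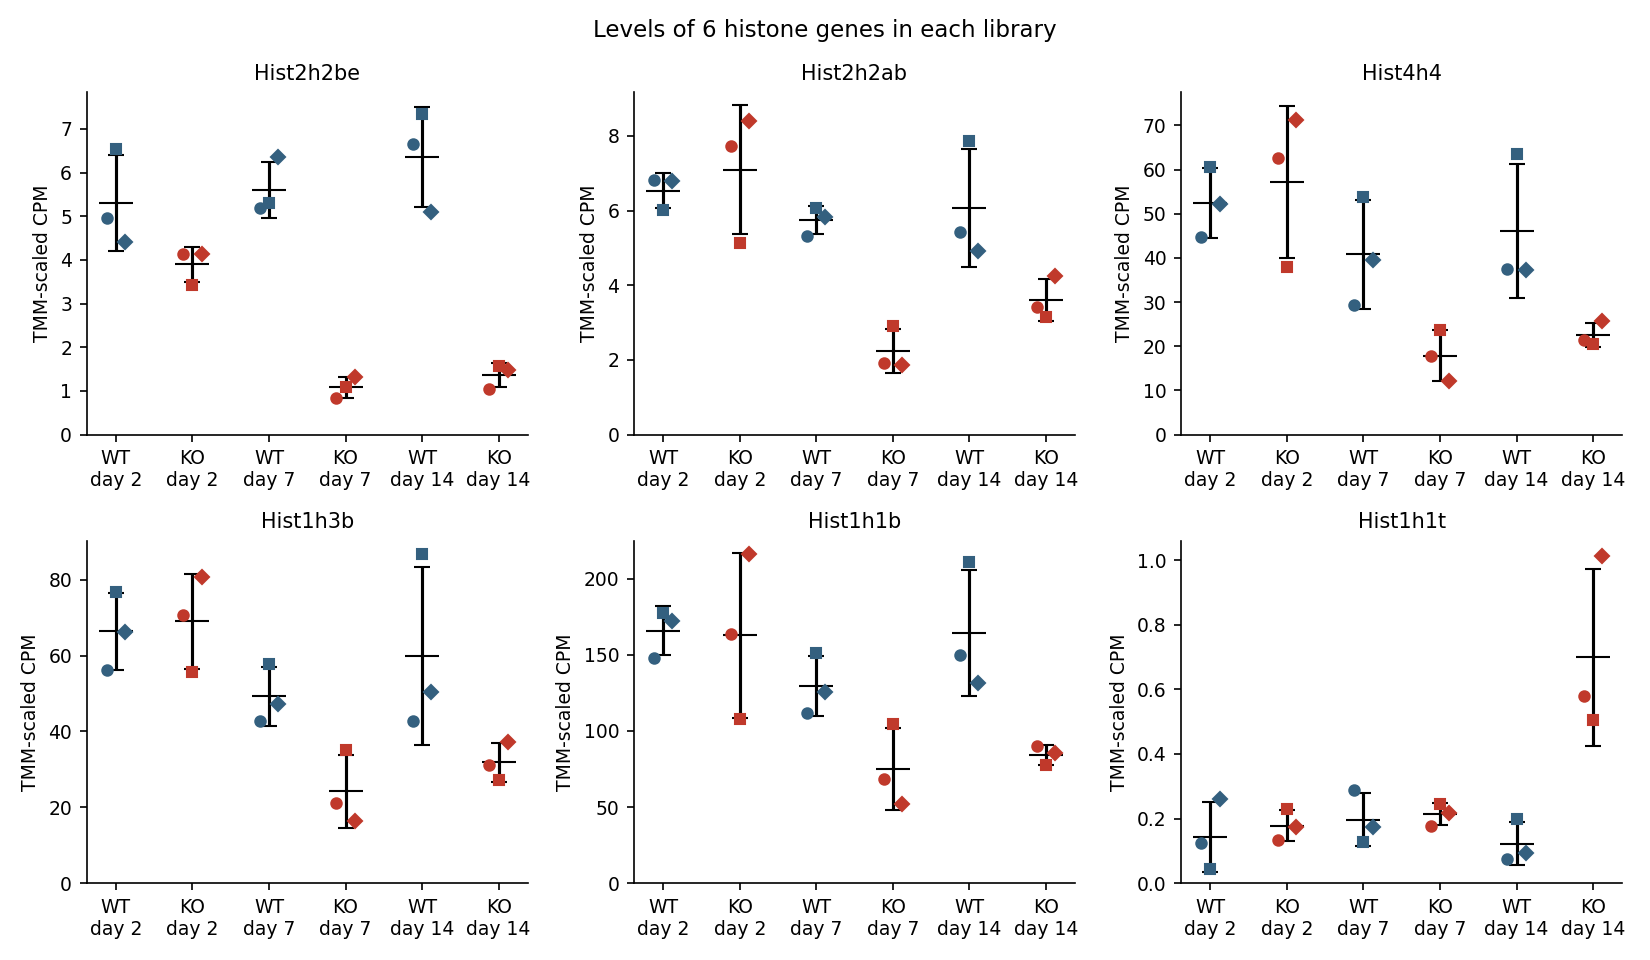
Level of 6 histone genes in each library, in TMM-scaled CPM (vertical axes, from 0), by genotype and day. Points are libraries and bars with error bars are the mean and SD of 3. Hist2h2be, Hist2h2ab, Hist4h4, Hist1h3b and Hist1h1b are lower in every KO library than in every WT library at days 7 and 14, while Hist1h1t is higher in the KO libraries at day 14 (0.505 to 1.01 CPM against 0.0755 to 0.197).

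Of the 6 linker histone genes, 3 fell at day 7. Hist1h1b, which encodes H1.5 (chr13:21779883-21780625, minus strand), had 68.1, 104 and 51.9 CPM in KO and 112, 151 and 126 in WT at day 7. At day 14 it had 90.2, 77.3 and 85.2 CPM in KO and 150, 211 and 132 in WT, so the groups were apart on both days. The log2 fold changes were -0.79 ± 0.246 (edgeR adjusted p = 0.0328) and -0.96 ± 0.247 (edgeR adjusted p = 0.0204). The first was lost without KO replicate 1 or 3 or WT replicate 2 or 3 (up to 0.154) and the second without any KO library or WT replicate 2 (up to 0.106). Hist1h1c and Hist1h1d were called at day 7 (-0.78 ± 0.248 and -0.71 ± 0.227), both lost without KO replicate 1 or 3 or WT replicate 2, and Hist1h1d also without WT replicate 3 (adjusted p up to 0.204 and 0.151). Hist1h1a was at 80.8 ± 24.7 CPM in KO and 93.2 ± 19.5 in WT at day 7, with overlap (-0.20 ± 0.223, edgeR adjusted p = 0.594).

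Hist1h1t, which encodes the linker histone of spermatocytes, had 11, 8 and 15 counts in the KO libraries and 1, 5 and 2 in the WT libraries of day 14. All KO libraries were above all WT libraries, from counts close to 0. Of the 18 libraries, these 3 KO libraries alone reached the 0.471 CPM that the filter on low counts asked of 3 libraries. The gene was thus admitted by the group in which it was high, and its values are a description with no test. At day 7 the counts were 4, 7 and 5 in KO and 8, 2 and 4 in WT, with overlap.

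Among the H2A and H2B genes of chromosome 13, Hist1h2af and Hist1h2ak fell on both days. Hist1h2af had 10.9, 19.1 and 7.47 CPM in KO and 24.7, 30.7 and 23.3 in WT at day 7, and 16.4, 11.7 and 17.6 in KO and 27.3, 41.3 and 29.3 in WT at day 14. The groups were apart on both days. The log2 fold changes were -1.06 ± 0.270 (edgeR adjusted p = 0.0118, lost without KO replicate 1 or WT replicate 2) and -1.10 ± 0.272 (edgeR adjusted p = 0.0176, lost without KO replicate 1 or 2 or WT replicate 2). Hist1h2af shares 79.3% of its windows with other genes. Hist1h2ak, the H2A gene of highest level per kilobase, was at 37.7 ± 12.1 CPM in KO and 65.1 ± 9.02 in WT at day 7 and at 43.7 ± 8.05 and 79.2 ± 24.02 at day 14 (edgeR adjusted p = 0.0248 and 0.0268). The first was lost without KO replicate 1 or 3 or WT replicate 2 or 3, the second without any KO library or WT replicate 2. Hist1h2bp had 1.26, 2.21 and 1.82 CPM in KO and 3.63, 4.74 and 2.97 in WT at day 14, apart (-1.11 ± 0.320, edgeR adjusted p = 0.0366, lost without any KO library or WT replicate 1 or 2). The H2B genes of highest level per kilobase did not pass. Hist2h2bb, all of whose windows are shared, was at -0.45 ± 0.297 and -0.78 ± 0.298 at days 7 and 14, and Hist1h2bn at -0.88 ± 0.305 and -0.98 ± 0.306. Hist1h2ab was at -0.72 ± 0.358 and -0.78 ± 0.359. Hist3h2ba, of 8 to 30 counts per library, had the highest value at day 7 (0.11 ± 0.413, edgeR adjusted p = 0.893). The other genes called at day 7 were Hist1h2ai, Hist1h2bb, Hist1h2bf, Hist1h2bl, Hist1h4c and Hist1h4d, each lost in 3 to 5 of the 6 fits without 1 library.

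Between days 2 and 7, 46 of the 66 genes fell in KO, where 8.8% of all genes were called lower, and the median log2 fold change was -1.12. This count was 28 in a model of these groups alone, 33 without KO day 2 replicate 1, 22 without KO day 2 replicate 3, 25 without KO day 7 replicate 1, 22 without KO day 7 replicate 3, and 56 and 57 without replicate 2 of day 2 or day 7. In WT 0 of the 66 passed between the same days, by edgeR or DESeq2, with 2 at an unadjusted p under 0.05 (22.4% of all genes), where 0.553% of all genes were called. In a model of the compared groups alone, 22 of 64 tested genes had an unadjusted p under 0.05 in WT and 52 of 64 in KO. The WT median was -0.32, with 60 of 66 below 0 (48.8% of all genes), and lay between -0.46 and -0.21 without 1 library. By the test of the difference, the KO effect of day 7 was lower than that of day 2 in 2 of the 66, Hist2h2be and Hist2h2ab, where 3.04% of all genes were called lower. In this test 27 had an unadjusted p under 0.05, as did 18.1% of all genes, and the median was -0.83. The count was 11 without KO day 7 replicate 2 and 7 by DESeq2. These comparisons share libraries with the comparison of KO and WT at day 7. Between days 7 and 14, 0 passed in KO by either tool (2 at an unadjusted p under 0.05; median 0.27, between 0.05 and 0.59 without 1 library; 0.0468% of all genes called). The KO effects of days 14 and 7 differed in 0 by either tool (1 at an unadjusted p under 0.05), where 0% of all genes were called. The median of that difference was -0.04, and it changed sign with the library left out, from -0.30 to 0.27. In WT, 0 passed between days 14 and 2 by either tool, with 0 at an unadjusted p under 0.05 and 1.61% of all genes called.

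Several histone genes are near copies of each other. Of the 69, 29 share at least 50% of their 100-base windows with other transcripts, 26 overlap another gene model, and reads that map to several places were not counted. Of the 12 genes with under 10% shared windows and no overlapping model, 6 fell at day 7 (median -0.69) and 4 fell at day 14 (median -0.76). Of the other 54 tested, 11 fell at day 7 (median -0.72) and 6 at day 14 (median -0.75). Over all genes 10.2% were called lower at day 7 and 4.69% at day 14. The 12 genes include Hist1h1t, which entered the test only through its KO day 14 libraries. The transcript models of 23 genes run at least 100 bases past the stem-loop, with medians of -0.66 and -0.67 at days 7 and 14. The 23 models that end sooner had medians of -0.72 and -0.78, and the 20 tested models without a stem-loop -0.78 and -0.80.

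Of 26 genes for transcription, processing, translation or decay of histone mRNA, 4 fell at day 7 (15.4%, against 10.2% of all genes) and 2 at day 14 (7.69%, against 4.69%), with medians of 0.00 and -0.15. The 2 calls of day 14 were lost with no filter on low counts and in a model of the compared groups alone, and without 1 library 1 to 3 fell at day 7 and 0 to 1 at day 14. Lsm11 and Lsm10 are the proteins particular to the U7 snRNP. Lsm11 had 3.51, 6.04 and 7.03 CPM in KO and 11.7, 9.07 and 11.4 in WT at day 7, all KO libraries lower. Its log2 fold change was -0.96 ± 0.193 (edgeR adjusted p = 0.00204), called without any 1 library, and -0.52 ± 0.193 at day 14 (edgeR adjusted p = 0.107). Lsm10 was at 1.76 ± 0.242 CPM in KO and 2.84 ± 0.372 in WT at day 7 and at 1.74 ± 0.185 and 2.97 ± 0.480 at day 14 (edgeR adjusted p = 0.0301 and 0.0299), each call lost in 5 of 6 fits without 1 library. The nuclease gene Mblac1 fell on both days (-0.86 ± 0.272 and -1.04 ± 0.292) and the translation factor gene Ctif at day 7 (-0.62 ± 0.183). Slbp, the gene of the stem-loop binding protein, was at 32.7 ± 3.20 CPM in KO and 37.1 ± 3.29 in WT at day 7 and at 36.5 ± 2.04 and 40.4 ± 2.06 at day 14 (edgeR adjusted p = 0.298 and 0.484). Npat, the coactivator of histone genes, was at -0.06 ± 0.133 and -0.13 ± 0.134, and Hinfp, a factor of H4 promoters, at -0.14 ± 0.132 and -0.08 ± 0.134. Casp8ap2, which takes part in histone mRNA cleavage, was at 0.44 ± 0.156 and 0.17 ± 0.157 (edgeR adjusted p = 0.0592 and 0.594). Zfp473, of the U7 complex, and Eri1, an exonuclease of histone mRNA, did not pass on either day (-0.33 ± 0.266 and -0.15 ± 0.273, and -0.25 ± 0.118 and -0.31 ± 0.118).

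Of 10 tested replication-independent histone genes, whose mRNAs are polyadenylated (H2afx also makes a stem-loop form), 1 fell on each day, H2afj (-0.56 ± 0.137 and -0.53 ± 0.139, edgeR adjusted p = 0.00774 and 0.0221), where 10.2% and 4.69% of all genes were called lower. The H2afj call was lost without KO day 7 replicate 1 (0.0551) and at day 14 without KO replicate 1 or 2 or WT replicate 2 (up to 0.118). The medians were -0.20 and -0.36. H2afz was at -0.17 ± 0.203 and -0.44 ± 0.204, H2afx at -0.14 ± 0.224 and -0.40 ± 0.225, H3f3a at -0.36 ± 0.190 and -0.39 ± 0.191, H3f3b at -0.02 ± 0.199 and -0.20 ± 0.199, and H1f0 at -0.15 ± 0.226 and -0.22 ± 0.226, none called. Their summed KO level was 0.888 times WT at day 7 and 0.812 times at day 14. Of 16 histone chaperone genes, 2 fell and 1 rose at day 7 and 2 fell at day 14, a share of 12.5% lower on each day. Ubn1, of the HIRA complex, fell on both days (-0.49 ± 0.0973 and -0.46 ± 0.0975).

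Of 53 S phase genes, 10 fell (18.9%) and 1 rose at day 7 (median -0.21) and 7 fell (13.2%) at day 14 (median -0.26). Of 50 G2 and M phase genes, 8 fell and 1 rose at day 7 (median -0.16) and 22 fell (44.0%) at day 14 (median -0.47). Over all genes 10.2% were called lower at day 7 and 4.69% at day 14. Without 1 library, 3 to 9 S phase genes fell at day 7 and 2 to 7 at day 14, and 2 to 9 and 5 to 19 of the G2 and M phase genes. Pcna, the sliding clamp of replication, was at 43.8 ± 9.52 CPM in KO and 51.7 ± 13.8 in WT at day 7 and at 46.4 ± 0.921 and 58.4 ± 7.497 at day 14 (edgeR adjusted p = 0.482 and 0.373). Mcm2, of the replicative helicase, was at -0.13 ± 0.147 and -0.26 ± 0.148, Rrm2, of ribonucleotide reductase, at 0.06 ± 0.185 and -0.55 ± 0.188, and the proliferation marker Mki67 at -0.02 ± 0.165 and -0.33 ± 0.165, none called. Cdca7 fell at day 7 (-1.01 ± 0.176) and Rfc2, of the clamp loader, on both days. Over the summed S phase genes, the summed histone level was 1.33, 1.49 and 0.865 in KO and 1.55, 2.04 and 1.69 in WT at day 7, where the groups were apart and the means had a ratio of 0.698. At day 14 it was 1.42, 1.39 and 1.69 in KO and 1.66, 2.52 and 1.94 in WT, with an overlap of 1 library and a ratio of 0.735. At day 2 the ratio was 1.05. This quotient was chosen after the data were seen.

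Other RNAs without a poly(A) tail were set beside the histone mRNAs. Of 12 of them, 1 fell on each day (8.33%, against 10.2% and 4.69% of all genes), the telomerase RNA Terc, and the medians were -0.42 and -0.20. Terc had 2.45, 4.67 and 1.83 CPM in KO and 7.16, 10.2 and 6.74 in WT at day 7, and 2.00, 1.45 and 2.56 in KO and 6.65, 8.73 and 7.41 in WT at day 14. All KO libraries were below WT (-1.41 ± 0.285 and -1.93 ± 0.307, edgeR adjusted p = 0.00205 and 0.000509). The summed level of the 12 was 0.759 times WT at day 7, with overlap, and 1.00 times at day 14. Their sums were 16213, 19053 and 12248 CPM in KO and 16571, 28671 and 17392 in WT at day 7, with the libraries of each genotype in the same order as by their histone sums. KO libraries of days 2 and 14 also had the same order in both sums, and WT libraries of those days did not. The part of these differences in the histone result was not tested.

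Markers of crypt cell types were called at the same days, where 10.2% of all genes were called lower and 7.11% higher at day 7 and 4.69% and 3.23% at day 14. At day 7, 10 of 12 stem cell markers fell (summed level 0.452 times WT, libraries apart; 8 to 11 called without 1 library), as did 8 of 8 Paneth cell markers (0.264 times, apart; 6 to 8). All 12 enteroendocrine cell markers rose on both days (2.42 and 2.92 times, apart; 11 to 12 on each day). Of the 8 goblet cell markers, 3 fell at day 7 and the other 5 were above 0 without passing, with a median of 0.11 and a sum of 0.762 times WT with overlap. Of the 10 villus enterocyte markers, 1 fell and 2 rose at day 7 (1.53 times, apart), and without 1 library 0 to 2 were called. At day 14, 2 stem cell markers (sum of the list 0.766 times, apart) and the Paneth cell marker Ang4 (sum of the list 0.485 times, apart) fell, with 0 to 1 of each list called without 1 library. The goblet cell marker Clca1 also fell at day 14 and was lost in 3 of 6 fits without 1 library. Of the 8 goblet cell markers 4 were above 0, with a median of 0.02 and a sum of 0.870 times WT, apart. The enterocyte marker Sis rose at day 14 (sum 1.73 times, with overlap; 5 markers called with the replicate block of day 14) and was lost in 4 of 6 fits. Of the 10 epithelial markers Cdx1 was called at day 7, lost in 5 of 6 fits without 1 library, and 0 at day 14 (1 at an unadjusted p under 0.05), with summed levels of 1.10 and 1.00 times WT. Of the stromal markers 2 rose at day 7, and 0 of the T cell, B cell and myeloid markers were called on either day by edgeR or DESeq2. Before adjustment, 0 to 1 genes of each of these lists had an edgeR p under 0.05 at day 7, and 1 to 2 at day 14. The summed T cell markers were at 1.13 times WT at day 7, with overlap, and at 1.52 times at day 14, where the KO libraries (35.3, 48.2 and 31.4 CPM) were all above the WT libraries (23.9, 22.2 and 29.3). The B cell, myeloid and stromal sums overlapped between the groups on both days. They were at 131%, 83.4% and 159.6% of WT at day 7 and at 75.3%, 70.1% and 91.9% at day 14. The part of these shifts in the histone result was not tested.

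**Figure D5:**
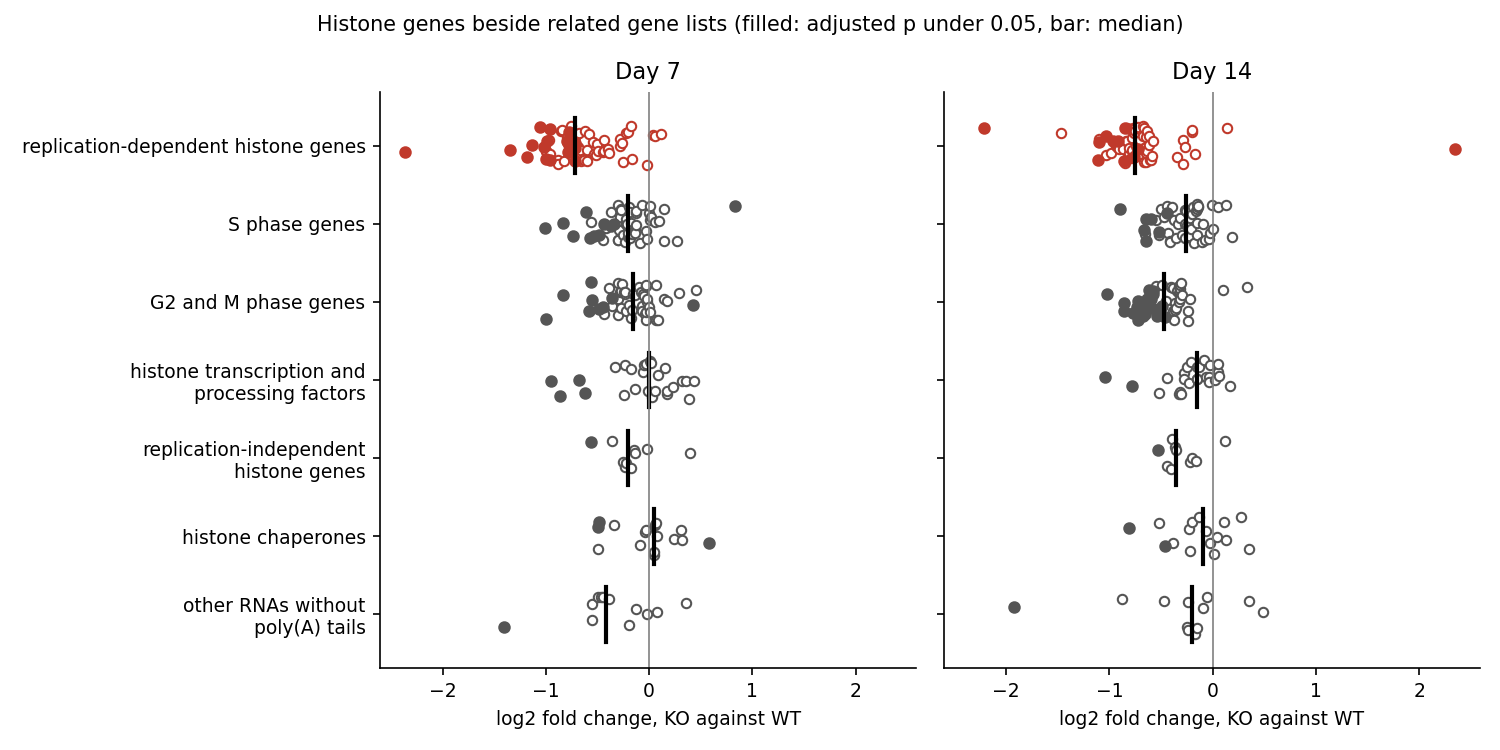
Log2 fold change of KO against WT (horizontal axis) at days 7 and 14 for the histone genes and related gene lists (rows). Points are genes, filled where the adjusted p was under 0.05, and bars are list medians. The histone genes have medians of -0.71 and -0.75, against -0.21 and -0.26 for the S phase genes and 0.00 and -0.15 for the genes that act on histone mRNA.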

How the data were processed

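RNA of small intestinal crypts from 18 mice was sequenced, 3 for each genotype and day. Per the file header, the authors counted fragments per gene with featureCounts 1.6.4 on GENCODE M23 (build mm10), after alignment with STAR 2.7.3, and deposited the raw counts. The header's settings used no strand, counted a fragment for each gene it overlapped and left out multi-mapped reads. The methods name GENCODE M26. The study found male and female libraries apart in its principal component analysis and removed genes that differ between the sexes. These 20 genes were left out here, and 0 columns were unused. Sex was not in any model. The mm10 coordinates are those of the table.

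Counts were analysed in R 4.3.3 with edgeR 4.0.16: TMM scaling, filterByExpr by group, and robust quasi-likelihood tests in 1 model of all 18 libraries, with Benjamini-Hochberg adjustment over 21349 genes and a threshold of 0.05. CPM were computed from the deposited counts with TMM factors. The fits were tested on simulated data. Each group is 3 mice, so p-values measure the spread between mice. The labels do not say what a replicate number marks. At day 14, deviations of same-numbered KO and WT libraries from their group means correlated at 0.16 to 0.23 and those of all other pairs at -0.15 to -0.04, so that the number was also fitted as a block among the libraries of that day.

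The genes named are, per class, the 2 of highest level per kilobase and those of smallest p at days 7 and 14, the 3 highest and 3 lowest fold changes of each day, calls against the common direction, testis histones, genes at the filter's limit, fixed genes of the lists, and per list the called gene of smallest p. Other called genes are named after their values were seen. The members and lists were chosen with earlier results of these data known. Alternatives were DESeq2 1.42.0, other scalings, the 20 most abundant genes left out, other filters, the removed genes kept, a model of only the groups compared, a replicate block, and each library left out in turn. Stem-loops and shared windows came from GENCODE M21 transcripts, promoters from RefSeq.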

Additional observations from a re-analysis of the deposited data

Results flagged for a closer look

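Some named genes had a KO effect that differed between days 7 and 2 by its own test (edgeR's quasi-likelihood test, Benjamini-Hochberg adjusted p). Of the histone genes these were Hist2h2be, with a log2 difference of -1.93 ± 0.316 (SE; adjusted p = 0.00174), and Hist2h2ab, with -1.47 ± 0.320 (adjusted p = 0.0129).

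Of the genes named from the other lists, the KO effect was lower at day 7 than at day 2 for Cdca7 (-0.96 ± 0.247, adjusted p = 0.0320) and Cdca2 (-0.89 ± 0.187, adjusted p = 0.00986). Cdca7 was the only call among 53 S phase genes (1.89%) and Cdca2 the only call among 50 G2 and M phase genes (2.0%). Over all genes 3.04% were called lower. The KO effect was also lower for the stem cell marker Smoc2 (-1.38 ± 0.243, adjusted p = 0.00306), the Paneth cell markers Itln1 (-2.61 ± 0.577, adjusted p = 0.0157) and Ang4 (-2.60 ± 0.598, adjusted p = 0.0234), and the goblet cell marker Spink4 (-1.42 ± 0.275, adjusted p = 0.00585). In these lists 6 of 12 stem cell, 4 of 8 Paneth cell and 1 of 8 goblet cell markers were called lower. The KO effect was higher for the enteroendocrine gene Tph1 (2.00 ± 0.258, adjusted p = 0.00023) and the stromal gene Vim (1.29 ± 0.316, adjusted p = 0.0255). Called higher were 9 of 12 enteroendocrine cell markers and 1 of 10 stromal markers.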

How the results depend on the processing

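The number of histone genes called at day 7 was 17, and 2 to 35 with 1 library left out. It was 25 by DESeq2, 23 at a mean count of at least 50, 14 in a model of only the groups compared and 11 with no filter on low counts. Of the 17 calls 6 held under every setting other than a left-out library, as did 4 of the 11 of day 14. At day 14 it was 11, with Hist1h1t, and 2 to 9 with 1 library left out, 22 by DESeq2, 16 (0 higher) at a mean count of at least 50 and 14 (0 higher) in a model of only the groups compared, and Hist1h1t was tested in neither. For the difference of the KO effects of days 7 and 2 it was 2, and 2 to 11 with 1 library left out, 7 by DESeq2, 4 with no filter and 5 at a mean count of at least 50. Between days 2 and 7 in KO it was 46, and 22 to 57 with 1 library left out and 28 in a model of those groups alone. With the replicate block over all days it was 17, 10 (9 lower, beside Hist1h1t), 3 and 46. With that block the Prmt1 call of day 2 was lost (adjusted p = 0.0531), as it was in a model of only the groups compared (0.0939). At days 2 and 7 same-numbered libraries did not all correlate above 0.1 (0.05 to 0.38 and -0.16 to 0.21), and not every library correlated best with its own number. At day 14 they did, and the block of that day alone, added after the data were seen, gave 7 calls, 6 lower and Hist1h1t. Hist1h1t was admitted by the group in which it was high and counts as no test. Without a library, the medians of the histone genes stayed between -1.06 and -0.45 at day 7 and -0.87 and -0.46 at day 14. The summed histone level kept its direction at days 7 and 14 under every alternative run, among them division by the summed S phase genes, which was added after the data were seen. At day 2 it was 0.918 times WT without KO replicate 3. The causes were not tested.

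With 1 library left out, the sign of the log2 fold change turned for these genes, none of which was called: at day 7 Hist1h1a (-0.47 to 0.0045), Hist1h1t (-0.12 to 0.46), Hist1h4i (-0.15 to 0.22), Hist3h2ba (-0.17 to 0.46), H2afz (-0.37 to 0.063), H2afx (-0.40 to 0.10), H3f3b (-0.15 to 0.20), H1f0 (-0.29 to 0.12), Pcna (-0.42 to 0.0026), Rrm2 (-0.087 to 0.28) and Mki67 (-0.12 to 0.064), and at day 14 Hist1h4i (-0.11 to 0.31), Hist1h4n (-0.32 to 0.19), Zfp473 (-0.30 to 0.073) and H1f0 (-0.37 to 0.034). Depth limits the testis histones and Hist1h2aj, at 0 to 15 counts per library.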
